A study of Mus musculus with 32 samples.

Results

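Memory CD8+ T cells recovered from the lymph node were compared with naive CD8+ T cells of the same transgenic specificity by bulk RNA sequencing. The comparison rests on 8 libraries, 4 of lymph node memory cells and 4 of naive cells, which were taken by their labels from a series of 32 libraries. All of them hold Pmel CD8 T cells, sorted as CD8+ Thy1.1+ cells per the series' design text, from C57BL/6 mice aged 16 weeks. Pmel cells carry a transgenic T cell receptor for the melanocyte protein gp100. The labels give melanoma-associated vitiligo as the disease state of every library, the naive ones included. The memory cells came from the lymph node, and the design text places draining lymph node samples 45 days after tumor surgery. The naive cells came from the spleen, so memory state and tissue cannot be told apart in this comparison. Beside these, 4 libraries of the tumor-draining lymph node on day 12 and 4 libraries labelled spleen serve below as a description of levels. The labels do not state that the libraries came from separate animals, and each p-value therefore reflects just the spread among the samples at hand.

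Naive CD8+ T cells recirculate between blood and lymphoid organs. They use receptors such as CCR7 to enter lymph nodes and a receptor for sphingosine-1-phosphate to leave them, and the factors TCF-1, LEF-1 and KLF2 maintain this state. After antigen encounter, T-bet, Blimp-1, Id2 and related factors drive genes of killing, cytokine secretion and tissue entry. Memory T cells that stay in a tissue are known for the integrin CD103, CXCR6, low KLF2 and low S1PR1, and such cells have been described in lymph nodes as well as in skin.

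Values are TPM, normalized transcript abundances which show a gene's share of the RNA in a library, and read depth is unknown. In such bulk libraries, fewer cells of a type and less RNA per cell cannot be told apart. Between 19179 and 32843 genes lay above 0 in the memory libraries, against 28321 to 31347 in the naive libraries. Pearson correlations of log2(TPM + 1) across the genes tested, which are not independent replicates, were 0.869 to 0.957 within the memory group, 0.966 to 0.982 within the naive group and 0.813 to 0.876 between the groups. Memory replicate 4 stood apart, with correlations of 0.869 to 0.926 to the other memory libraries, while those 3 correlated at 0.944 to 0.957 with each other. The beta chain segment Trbv14, which encodes the variable region of the Pmel receptor, made up 99.1%, 98.8%, 99.2% and 94.7% of the TPM of all beta variable segments in memory replicates 1 to 4, against 99.3% to 99.4% in naive libraries. This segment was singled out after its values were seen.

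Genes of T cell identity summed to 35572, 31266, 38193 and 18468 TPM in memory replicates 1 to 4, against 44175, 38912, 38390 and 44622 TPM in naive replicates 1 to 4. All 4 memory libraries lay below all 4 naive libraries (exact two-sided permutation test, p = 0.0286, the smallest that 4 against 4 allows, and 0.0464 after adjustment over 13 lists). Markers of dendritic cells summed to 1157, 3305, 1545 and 9486 TPM in memory libraries, mostly Cd74 and MHC class II genes, against 31.5 to 85.2 TPM in naive libraries (adjusted exact p = 0.0464). Markers of B cells summed to 568, 1959, 982 and 6379 TPM in memory libraries, against 869 to 1027 TPM in naive libraries, and this difference did not pass (adjusted exact p = 0.371). The immunoglobulin heavy chain gene Ighm alone gave 802 to 933 of the naive TPM and was called lower in memory libraries. Of 15 B cell genes tested, 13 were called higher, against 18.3% of all genes tested. Of 12 dendritic cell markers, 8 were tested and 6 called higher, the MHC class II genes and Cd74 among them. Zbtb46 and Siglech were not called, and Flt3, Clec9a, Cd209a and Ccl22 were below the filter. Myeloid markers summed to 566 to 1301 TPM in memory libraries and 253 to 301 TPM in naive libraries (adjusted exact p = 0.0464). Of the 19, 13 were tested and 11 called higher. Plasma cell markers reached 33.5 to 509 TPM in memory libraries and 1.97 to 4.93 TPM in naive libraries, and NK cell markers 54.4 to 103 TPM against 2.08 to 6.78 TPM (adjusted exact p = 0.0464 for both). The light chain segment Iglv1 gave 18.6, 75.7, 86.0 and 259 TPM of the plasma cell sums in memory replicates 1 to 4. Iglv1, Mzb1 and Derl3 were called higher, Jchain was not called, and the other plasma cell markers were below the filter. Mzb1 and Derl3 passed the filter only through the memory libraries, so their calls are in part fixed. The NK cell sum in memory libraries was mostly the killer lectin gene Klre1 and Tyrobp, which the myeloid list also holds. The NK cell gene Ncr1 had 0 to 2.43 TPM in memory libraries. The list of CD4 and regulatory T cell markers summed to 102 to 144 TPM in memory libraries, mostly Cd40lg, and 2.70 to 3.36 TPM in naive libraries, gamma delta T cell markers to 152 to 249 TPM against 87.2 to 101 TPM, and keratinocyte markers to 19.0 to 121 TPM against 6.58 to 11.3 TPM (adjusted exact p = 0.0464 for all 3). Of the CD4 list, Cd40lg, Cxcr5, Zbtb7b and Foxp3 were called higher, and Cd4 was below the filter. Zbtb7b had 3.88 to 4.78 TPM in memory libraries and 0.02 to 0.17 TPM in naive libraries. Foxp3 had 1.28 to 2.32 TPM against 0.26 to 0.46 TPM. Cd40lg, Zbtb7b and Foxp3 passed the filter only through the memory libraries, so their calls are in part fixed. Of the gamma delta list, Tcrg-C2, Tcrg-C4 and Blk were called higher, and Trdc and Tcrg-C1 were not called. Trdc had 41.9, 33.3, 41.4 and 9.19 TPM in memory libraries, below the 45.8 to 54.1 TPM of naive libraries. Of the keratinocyte list, Perp and Sfn were called higher, while Krt5, Krt14 and Krt15 stood at 0 TPM in memory replicates 1 and 2. A test on the difference of medians gave adjusted exact p = 0.0825 for each of these passing sums, T cell identity included. Its smallest exact p with 4 against 4 is 0.0571, so it could not pass whatever the values, and nothing is concluded from it. Neutrophil, stromal and melanocyte markers did not pass (adjusted exact p = 0.0825, 0.429 and 0.169). Erythroid markers went the other way in 3 of 4 memory libraries, at 3.80, 36.4, 619 and 31.3 TPM against 338 to 943 TPM in naive libraries (adjusted exact p = 0.149). Memory replicate 4 held the highest sums of dendritic cell, B cell, plasma cell, myeloid, neutrophil and NK cell markers and the lowest T cell identity sum. The part of these other cells in the gene changes was not tested, and results that moved with memory replicate 4 are given with and without it.

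**Figure D1:**
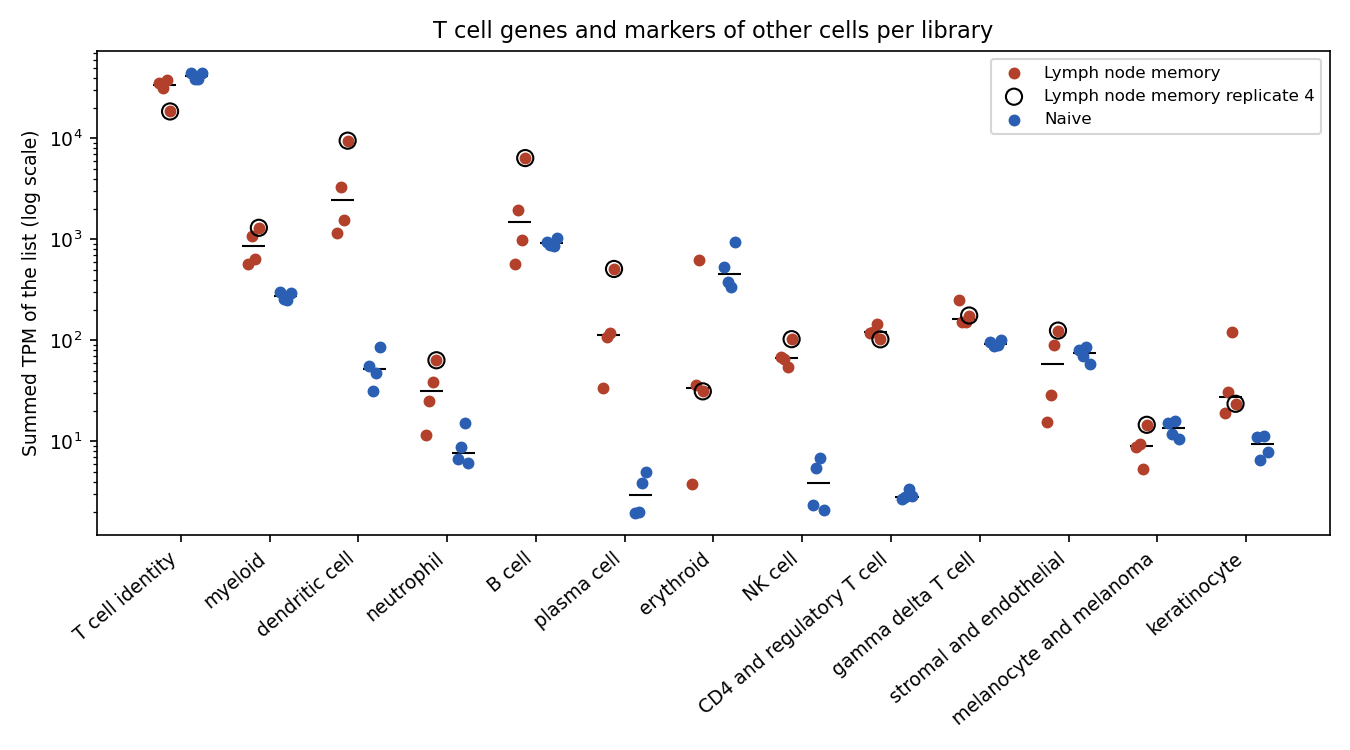
Summed TPM (log scale) of T cell identity genes and of 12 lists of markers of other cell types, with 1 point per library and a line at the median of each group of 4. Open circles mark memory replicate 4, which has the lowest T cell identity sum (18468 TPM) and the highest dendritic cell and B cell sums (9486 and 6379 TPM).

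Of 13801 genes tested, 2522 were called higher in lymph node memory cells and 1467 lower (limma, adjusted p under 0.05), which is 18.3% and 10.6% of the genes tested. Together 28.9% were called, and the 2 groups did not overlap for 31.6% of genes. Among the called genes, 1558 had a log2 change of at least 1 and 636 of at most -1, while the median over all genes tested was 0.04. Log2 changes are on the log2(TPM + 1) scale, which understates the change of low genes. Without memory replicate 4 the calls numbered 3289 higher and 1944 lower. Quantile normalization gave 2303 higher and 2864 lower, so the higher share of the calls was 63.2% as tested and 44.6% after it. A model of all 8 groups, whose pooled spread includes the more variable liver and lung libraries, called 941 higher and 400 lower, 9.72% of the genes, and 1328 of these 1341 were also called from the 8 libraries alone.

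**Figure D2:**
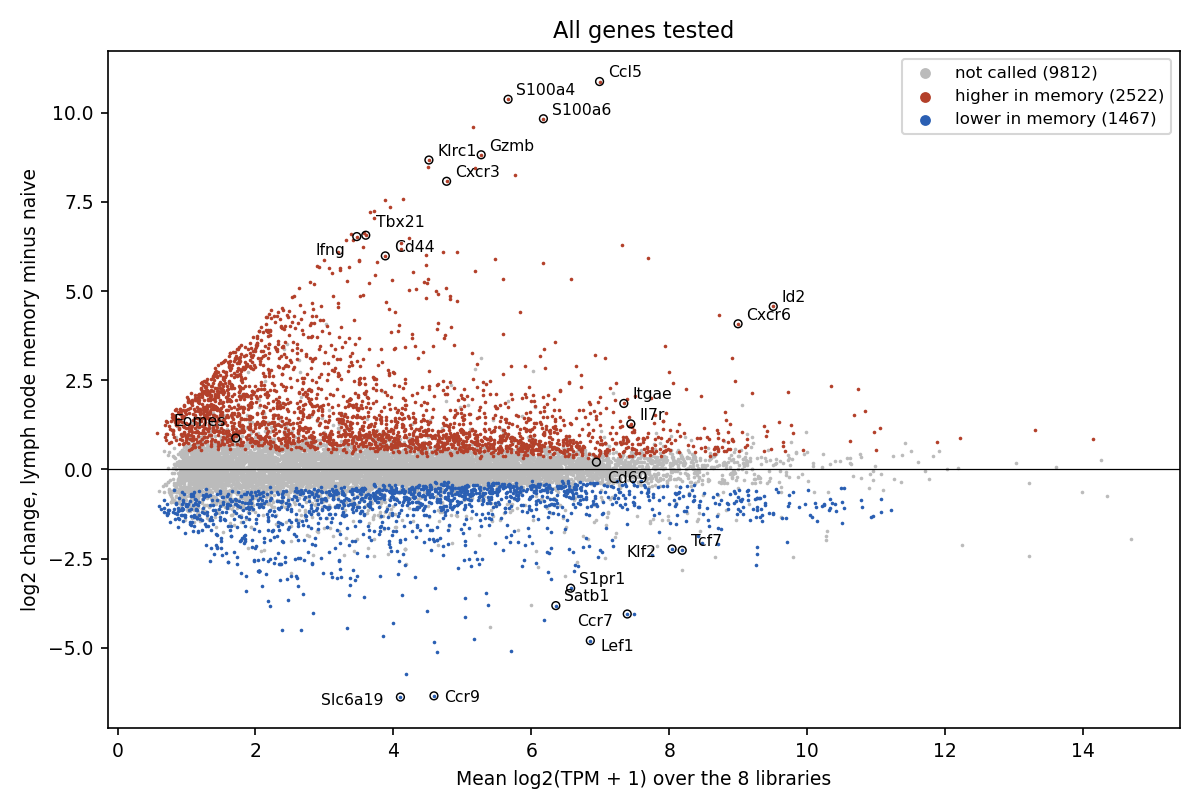
Log2 change of lymph node memory minus naive against the mean log2(TPM + 1) over the 8 libraries, 1 point per gene tested, with 23 genes circled and named. Genes called higher (2522) and lower (1467) lie above and below 0, with Ccl5, S100a4 and S100a6 at the top and Slc6a19 and Ccr9 at the bottom.

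The 27 gene lists used below hold 570 distinct tested genes, of which 255 were called higher and 111 lower, 64.2% against 28.9% of all genes tested. Their members overlap between lists and were chosen with earlier results of these data known. These counts therefore describe the lists and are no independent support. Beside each list count stand 18.3% called higher and 10.6% lower over all genes tested. Members under 1 TPM in every naive library, such as Lgals3, Tbx21, Mki67, Cd244, Fut7 and Cd40lg, passed the filter only through the memory libraries. They had to differ, so the counts called higher in lists that hold such genes are in part fixed.

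**Figure D3:**
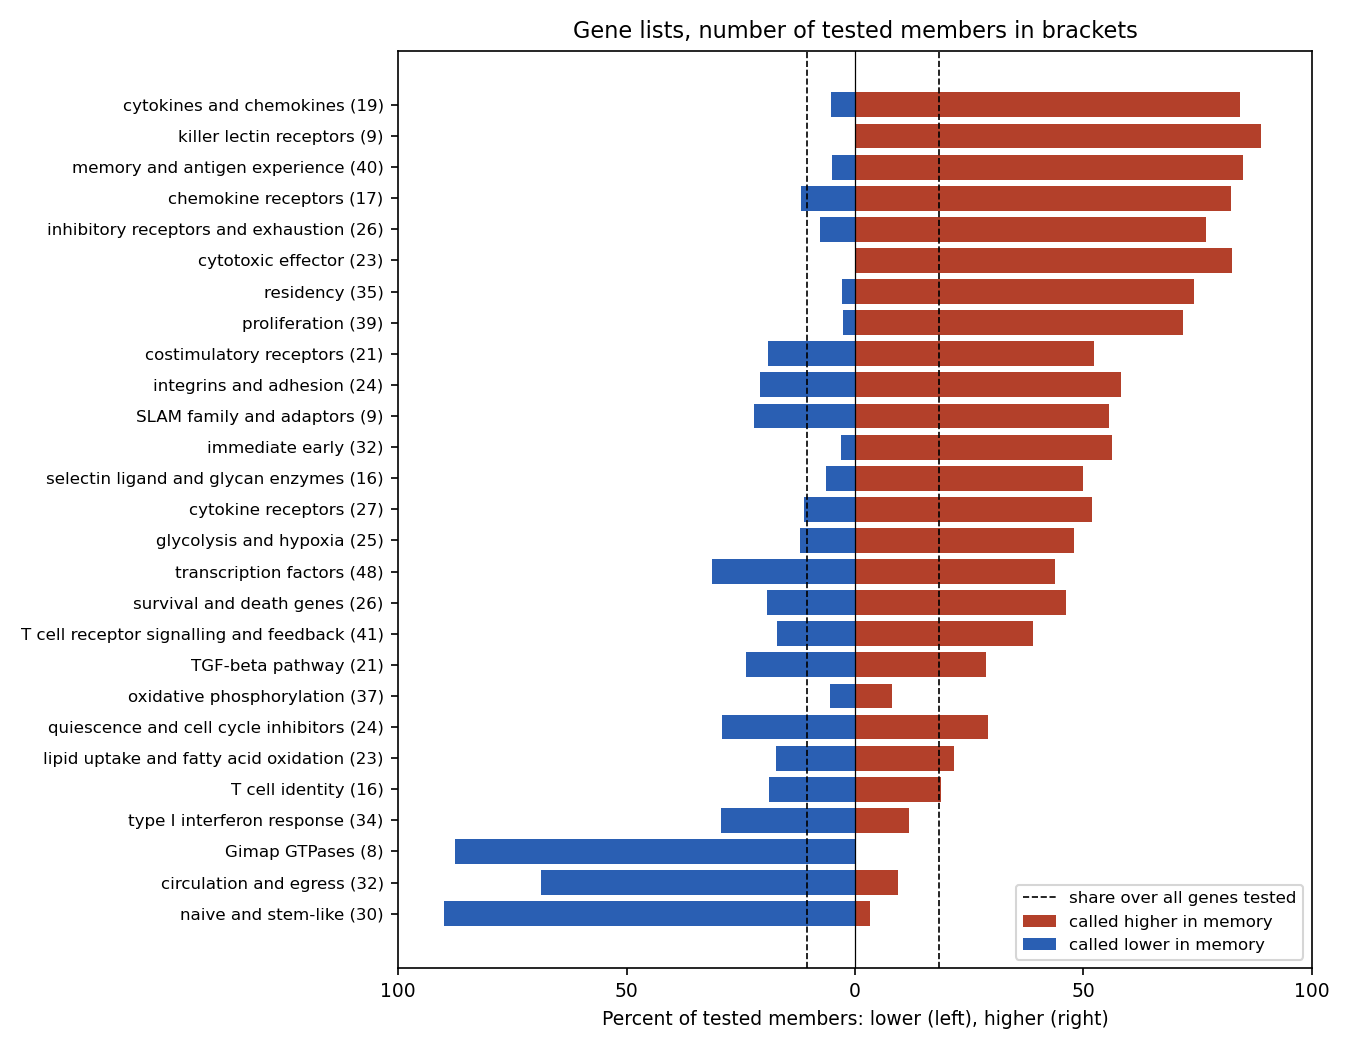
Percent of each list's tested members called higher (right of 0) and lower (left of 0) in lymph node memory cells, with the number tested in brackets and lists in order of their median change. Dashed lines mark the shares over all genes tested (18.3% higher and 10.6% lower), and the naive and stem-like list has 90% of its members called lower.

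The program of naive, recirculating cells was lower in lymph node memory cells. Of 30 tested genes of the naive and stem-like list, 27 were called lower and 1 higher, with a median log2 change of -2.32. Ccr7, the receptor for the lymph node chemokines CCL19 and CCL21, had 26.3, 38.8, 22.8 and 110 TPM in memory libraries and 707, 662, 650.05 and 713 TPM in naive libraries. The log2 change was -4.05 ± 0.42 (SE, limma adjusted p = 1.09e-04). Memory replicate 4 lay highest of its group, and the groups did not overlap.

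Egress genes were lower as well. S1pr1 encodes the sphingosine-1-phosphate receptor that leads T cells out of lymph nodes. It stood at 33.8, 21.7, 19.4 and 48.9 TPM in memory libraries, against 322, 289, 300.3 and 291 TPM in naive libraries, with a log2 change of -3.33 ± 0.26 (SE, limma adjusted p = 2.05e-05). Klf2, the factor that drives S1pr1, had 129, 107, 105 and 146 TPM in memory libraries and 630.4, 504, 555 and 594 TPM in naive libraries. All 4 memory libraries were close together and below every naive one, with a log2 change of -2.23 ± 0.14 (SE, limma adjusted p = 6.31e-06). Its relative Klf3 fell further, by 4.23 on the log2 scale. Of 32 tested genes of the circulation and egress list, 22 were called lower and 3 higher. The 3 that rose were Cx3cr1 (log2 change 5.26), which marks effector cells of the blood, the integrin chain Itgb1 (3.18) and Nod1 (0.96).

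A gut homing receptor and transporter genes included some of the largest falls. Ccr9, the receptor for the gut chemokine CCL25, lies at chr9:123678439-123784330 on the plus strand (GRCm38). It had 0.43, 1.58, 0.41 and 8.68 TPM in memory libraries, against 221, 217, 209 and 217 TPM in naive libraries. Only memory replicate 4 exceeded 2 TPM among memory cells. Its log2 change was -6.35 ± 0.54 (SE, limma adjusted p = 3.51e-05), and -6.97 without that library. Slc6a19, a transporter of neutral amino acids, stood at 0.07, 1.25, 0.19 and 3.36 TPM in memory libraries and 163, 156, 153 and 151 TPM in naive libraries, with a log2 change of -6.38. Slc16a5, of the monocarboxylate transporter family, fell by 4.83, the ADP-ribosyltransferase gene Art2b fell by 4.68 and the sodium pump subunit gene Atp1b1 fell by 4.30. Socs3, an inhibitor of cytokine signalling, had 3.01 to 6.88 TPM in memory libraries and 78.7 to 97.6 TPM in naive libraries.

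Among the naive list, Il7r was the member that rose. It encodes the receptor chain for the survival cytokine IL-7 and stood at 357, 268, 303 and 182 TPM in memory libraries, against 120.2, 109, 109 and 105 TPM in naive libraries (log2 change 1.28 ± 0.19, SE, limma adjusted p = 9.75e-04). Igfbp4, a binding protein of insulin-like growth factors, fell by 3.60. Cd27, a costimulatory receptor, fell by 0.72, and this call was lost when naive replicate 1 or 4 was left out. The anti-apoptotic gene Bcl2 fell by 0.98.

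Transcription factors changed in both directions. Of 48 tested factors, 21 were called higher (43.8%) and 15 lower (31.2%), beside 18.3% and 10.6% over all genes tested. Lef1, which encodes the high mobility group factor LEF-1, stood at 11.1, 18.2, 15.6 and 58.8 TPM in memory libraries, against 674, 588, 586 and 595 TPM in naive libraries. Its log2 change was -4.80 ± 0.42 (SE, limma adjusted p = 4.07e-05). Tcf7, which encodes its partner TCF-1, had 149.8, 119.8, 119.7 and 140.3 TPM in memory libraries and 628, 633, 665 and 628 TPM in naive libraries, a log2 change of -2.27 ± 0.11 (SE, limma adjusted p = 2.04e-06). Both fell in every memory library, yet Tcf7 kept a mean of 132 ± 15.1 TPM (SD, n = 4) in memory cells where Lef1 kept 25.9 ± 22.1. The genome organizer Satb1 fell by 3.82, Bach2 by 1.98 and Id3 by 1.88. Foxo1, an upstream regulator of Klf2, fell by 1.59, and Tox, a factor of chronic stimulation, fell by 1.44.

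The factors of effector and tissue memory cells were higher. Tbx21, which encodes T-bet, stood at 181, 116, 151 and 58.5 TPM in memory libraries, against 0.13 to 0.38 TPM in naive libraries. The log2 change of Tbx21 was 6.57 ± 0.32 (SE, limma adjusted p = 2.00e-06). Id2, an inhibitor of E proteins, reached 4344, 3675, 4589 and 2150 TPM in memory libraries, against 137 to 162 TPM in naive libraries. This is a log2 change of 4.57 ± 0.23 (SE, limma adjusted p = 2.05e-06). Zfp683 encodes Hobit, a factor of tissue-resident cells in mice. It stood at 75.0, 50.9, 32.8 and 28.4 TPM in memory libraries and at 1.70, 0.82, 0.39 and 0.90 TPM in naive libraries (log2 change 4.55 ± 0.32, SE, limma adjusted p = 1.37e-05). Prdm1, which encodes Blimp-1, had 23.3, 17.9, 15.4 and 6.00 TPM in memory libraries and 0.91 to 1.09 TPM in naive libraries, with a log2 change of 2.89. Runx2 rose by 4.58 and Bhlhe40, a factor of cytokine production and metabolism, by 4.60. Eomes, the relative of T-bet that supports circulating memory, had 4.74, 1.17, 5.73 and 3.68 TPM in memory libraries and 1.25 to 1.61 TPM in naive libraries, and its log2 change of 0.88 did not pass (limma adjusted p = 0.0795). It passed without memory replicate 2, at 1.23 (limma adjusted p = 0.00389).

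**Figure D4:**
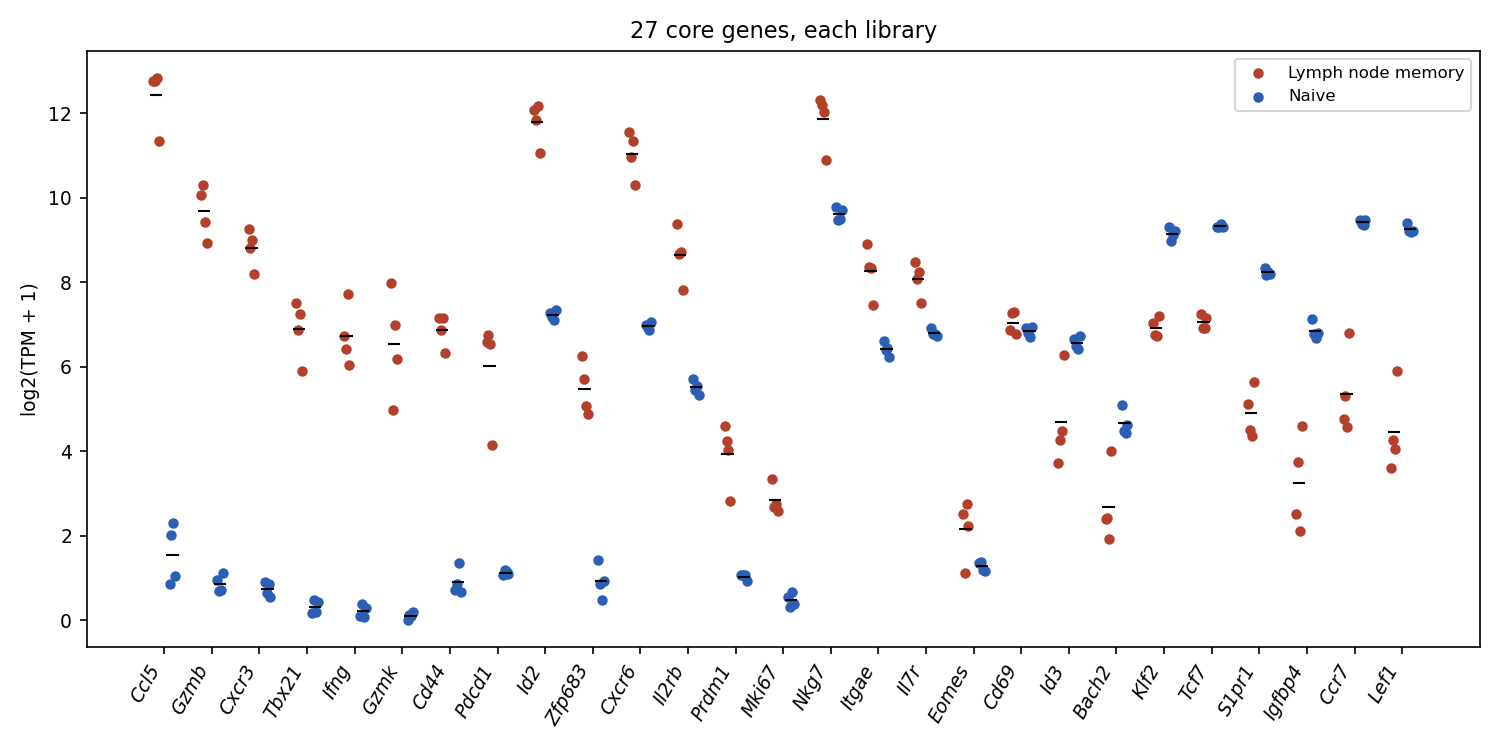
Log2(TPM + 1) of 27 core genes of naive and memory T cells in each library, ordered by their change, with a line at the mean of each group of 4. Memory points lie above the naive points from Ccl5 to Il7r, overlap them at Eomes and Cd69, and lie below them from Id3 to Lef1.

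Secreted and cytotoxic effector genes included some of the largest rises. Of 23 tested genes of the cytotoxic list, 19 were called higher and 0 lower, and of 19 cytokine and chemokine genes 16 were called higher and 1 lower, with a median log2 change of 4.20. Genes such as Gzmk and Ccl1 passed the filter only through the memory libraries and so had to differ, so these counts are in part fixed. Ccl5 encodes a chemokine that memory CD8+ T cells store and release, and lies at chr11:83525778-83530518 on the minus strand. It reached 6927, 6956, 7336 and 2589 TPM in memory libraries, against 0.82, 3.01, 3.91 and 1.06 TPM in naive libraries. Memory replicate 4 had less than the other 3, and even that library lay far above every naive one. The log2 change of 10.87 ± 0.42 (SE, limma adjusted p = 5.65e-07) was the largest in the named set. Gzmb encodes granzyme B, a protease of cytotoxic granules, at chr14:56258838-56262260 on the minus strand. It stood at 1074, 1263, 685 and 488 TPM in memory libraries, against 0.93, 0.60, 0.63 and 1.17 TPM in naive libraries, a log2 change of 8.82 ± 0.28 (SE, limma adjusted p = 3.00e-07). Ifng, the gene of interferon gamma, had 105, 85.0, 211 and 65.2 TPM in memory libraries and 0.05 to 0.30 TPM in naive libraries, a log2 change of 6.53 ± 0.32 (SE, limma adjusted p = 2.04e-06).

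Other granzymes varied more between memory libraries. Gzma had 1335, 126, 451 and 181 TPM in memory libraries and 4.36 to 5.35 TPM in naive libraries, so memory replicate 1 was the highest by far. Its log2 change was 5.91, and 5.26 without that library. Gzmk had 251, 30.3, 127 and 71.1 TPM in memory libraries and at most 0.15 TPM in naive libraries. Fasl, the ligand of the death receptor Fas, had 309, 249, 235 and 82.3 TPM in memory libraries and 0.10 to 0.36 TPM in naive libraries. Nkg7, a protein of cytotoxic granules, was abundant in both groups, with 5106, 4698, 4179 and 1894 TPM in memory libraries and 878, 708, 717 and 833 TPM in naive libraries. Its log2 change of 2.25 was therefore small beside those of the granzymes. The chemokine gene Ccl4 rose by 8.45, Ccl1 by 7.25 and Xcl1 by 5.45, while Il16 fell by 0.50 and lost this call without any one of 7 of the 8 libraries.

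Markers of antigen experience rose. Of 40 tested members of the memory list, 34 were called higher and 2 lower, with a median log2 change of 3.16. Members such as Lgals3 passed the filter only through the memory libraries, so the count called higher is in part fixed. Cd44, the hyaluronan receptor that defines antigen-experienced mouse T cells, stood at 142, 115, 142 and 79.2 TPM in memory libraries, against 0.63, 0.80, 1.54 and 0.58 TPM in naive libraries. The log2 change of Cd44 was 5.99 ± 0.23 (SE, limma adjusted p = 6.29e-07). S100a4 and S100a6 encode calcium-binding proteins. S100a4 had 2010.4, 2427, 2419 and 981 TPM in memory libraries and 0 to 1.31 TPM in naive libraries. S100a6 had 2254, 2618, 3078 and 1239 TPM in memory libraries and 0.95 to 2.40 TPM in naive libraries. Lgals3, which encodes galectin-3, had 1332, 1320.4, 1272 and 443 TPM in memory libraries and at most 0.43 TPM in naive libraries. Their log2 changes were 10.38, 9.83 and 9.61. Il2rb, the receptor chain shared by IL-2 and IL-15, had 662, 403, 417 and 223 TPM in memory libraries and 39.4 to 50.9 TPM in naive libraries (log2 change 3.13). The 2 members that fell were the integrin chain Itga4, by 2.98, and Ephb6, by 0.97. Of 24 tested integrin and adhesion genes, 14 were called higher and 5 lower. Itga4 pairs with Itgb1, which rose, so the 2 chains of one integrin moved in opposite directions. The call on Ephb6 was lost when any one of 6 libraries was left out.

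Chemokine receptors of inflamed tissue and skin rose while Ccr7 and Ccr9 fell. Of 17 tested receptors, 14 were called higher, and the 2 called lower were Ccr7 and Ccr9. Cxcr3, Ccr8 and Ccr10 passed the filter only through the memory libraries, so the count called higher is in part fixed. Cxcr3, the receptor for interferon-induced chemokines, stood at 608, 448, 508 and 289.9 TPM in memory libraries, against 0.46 to 0.87 TPM in naive libraries. The log2 change of Cxcr3 was 8.08 ± 0.22 (SE, limma adjusted p = 1.37e-07). Ccr8 and Ccr10, both receptors of skin-homing T cells, had 262, 295, 187 and 112 TPM and 169, 272, 139 and 85.4 TPM in memory libraries. Naive libraries held at most 0.17 TPM of Ccr8 and 0.04 TPM of Ccr10. Ccl1 encodes the ligand of CCR8, so ligand and receptor were both higher in the memory libraries. Ccr2, a receptor of inflammatory homing, rose by 6.48. Enzymes that build selectin ligands moved too, and of 16 tested 8 were called higher and 1 lower. Fut7, the fucosyltransferase needed for ligands of the endothelial selectins, had 95.2, 91.2, 71.1 and 44.6 TPM in memory libraries and 0.22 to 0.79 TPM in naive libraries, a log2 change of 5.68. Gcnt1, which makes the branched glycan on which they are carried, rose by 4.33, and Cmah, which modifies sialic acid, fell by 2.07.

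Residency genes were mostly higher. Of 35 tested members, 26 were called higher and 1, P2rx7, lower, with a median log2 change of 1.85. Members such as Itga1 passed the filter only through the memory libraries, so the count called higher is in part fixed. Itgae encodes CD103, which binds E-cadherin. It stood at 478, 328, 319.9 and 176 TPM in memory libraries, against 97.0, 82.5, 86.0 and 73.7 TPM in naive libraries, a log2 change of 1.85 ± 0.26 (SE, limma adjusted p = 7.49e-04). Naive CD8+ T cells of mice are known to express CD103, and the naive libraries did hold this transcript. Cxcr6, the receptor for CXCL16, had 3005, 2003, 2583 and 1256 TPM in memory libraries and 125, 120.1, 115 and 133 TPM in naive libraries, a log2 change of 4.08 ± 0.24 (SE, limma adjusted p = 4.92e-06). Itga1 encodes CD49a, a receptor for collagen. It had 59.2, 41.6, 36.3 and 16.6 TPM in memory libraries and at most 0.12 TPM in naive libraries, a log2 change of 5.09. Rgs1, which damps chemokine receptor signals, rose by 5.08, Litaf by 5.52 and Cdh1, which encodes E-cadherin itself, by 3.61.

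Cd69 was the core residency gene without a detected difference in transcript. Its protein binds S1PR1 and holds cells in tissue. It stood at 115, 153, 155 and 108 TPM in memory libraries and at 119, 110.2, 104 and 123 TPM in naive libraries, so the groups overlapped (log2 change 0.20 ± 0.15, SE, limma adjusted p = 0.340). The groups also overlapped for Runx3, chosen after its values were seen, with a log2 change of 0.39 that did not pass. The fall of P2rx7, a receptor for extracellular ATP, was small at 0.82 and lost its call when any one of 7 libraries was left out.

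Inhibitory receptors rose with the effector genes. Of 26 tested genes of the inhibitory and exhaustion list, 20 were called higher and 2 lower. Pdcd1, which encodes PD-1, had 95.5, 107, 92.6 and 16.7 TPM in memory libraries, against 1.08 to 1.27 TPM in naive libraries. Memory replicate 4 was far below the other 3 and still above every naive library. The log2 change was 4.90 ± 0.52 (SE, limma adjusted p = 1.37e-04), and 5.52 without memory replicate 4. Cd101 rose by 4.69 and Cd244, which encodes the receptor 2B4, by 4.12. The 2 members that fell were both transcription factors, Tox and Ikzf2, and Ikzf2 fell by 1.32. Tox had 10.6, 6.48, 8.0 and 11.7 TPM in memory libraries and 24.0 to 30.5 TPM in naive libraries.

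Receptors of the natural killer type, cytokine receptors and costimulatory receptors were read next. Of 25 killer lectin genes, 9 passed the filter on low values and 16 did not. Of the 9, 8 were called higher, but genes such as Klrc1 and Klre1 passed only through the memory libraries and so had to differ, and the count gives no support of its own. Klrk1, which encodes the activating receptor NKG2D, stood at 1556, 1112, 1061 and 434 TPM in memory libraries, against 1.31, 2.23, 4.19 and 1.43 TPM in naive libraries. Klrc1, which encodes the inhibitory receptor NKG2A, had 752, 457, 623 and 210.4 TPM in memory libraries and 0.03 to 0.29 TPM in naive libraries. Their log2 changes were 8.25 and 8.67. Reads of near-identical relatives, such as Klrc1 and Klrc2, the Ifitm genes or Bcl2a1b and Bcl2a1d, could have been split or shared in the authors' counting, so the values of single members are uncertain. Of 27 cytokine receptor genes, 14 were called higher and 3 lower. Il18rap, of the IL-18 receptor, rose by 5.21. The 3 that fell were both chains of the IL-6 receptor, Il6ra by 2.90 and Il6st by 2.99, and Ifngr2 by 2.68. Ifngr2 varied widely, at 1.40, 8.58, 3.18 and 26.0 TPM in memory libraries and 38.5 to 49.7 TPM in naive libraries, and fell by 3.32 without memory replicate 4. Of 21 costimulatory genes, 11 were called higher (52.4%) and 4 lower (19%), beside 18.3% and 10.6% over all genes tested. Cd40lg, the ligand of CD40 that is best known from helper T cells, had 104, 100.2, 131 and 65.5 TPM in memory libraries and at most 0.31 TPM in naive libraries (log2 change 6.42). Cd4 stood at 0.83 to 4.37 TPM in memory libraries and 0.34 to 0.82 TPM in naive libraries. Of 9 tested genes of the SLAM family and its adaptors, 5 were called higher and 2 lower. Slamf7 rose by 6.01 and Slamf6, a marker of stem-like T cells, fell by 2.32.

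Most cell cycle genes tested were higher. Of 39 tested proliferation genes, 28 were called higher and 1, the tubulin gene Tubb5, lower, with a median log2 change of 1.81. Mki67 stood at 9.20, 5.42, 5.74 and 4.94 TPM in memory libraries, against 0.24 to 0.58 TPM in naive libraries, a log2 change of 2.37 ± 0.22 (SE, limma adjusted p = 6.19e-05). Birc5, the mitotic gene of survivin, had 97.9, 27.1, 42.7 and 34.6 TPM in memory libraries and 1.94 to 5.54 TPM in naive libraries. Rrm2, a subunit of ribonucleotide reductase, had 164, 38.3, 61.3 and 31.4 TPM in memory libraries and 5.12 to 7.62 TPM in naive libraries. Memory replicate 1 was the highest of its group in these 3 genes. Of 24 tested genes of quiescence and cell cycle inhibition, 7 were called higher and 7 lower (29.2% each). Over all genes tested the shares were 18.3% higher and 10.6% lower. Without memory replicate 4, 11 of this list were called higher. The inhibitors Cdkn2c and Rbl2 rose by 1.80 and 1.44. Cdkn1a, which encodes p21, had 11.2, 12.4, 71.9 and 14.1 TPM in memory libraries and 0.15 to 0.46 TPM in naive libraries, with a log2 change of 3.95, or 3.34 without memory replicate 3. Pik3ip1, a brake on PI3 kinase, fell by 2.88 and Peli1, a ubiquitin ligase, by 1.63.

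Of 32 tested early response genes, 18 were called higher, 1 was called lower and 13 were not called. Nr4a1, a reporter of receptor stimulation, had 13.4, 26.4, 150 and 8.86 TPM in memory libraries and 3.75 to 4.72 TPM in naive libraries. Memory replicate 3 was the highest, also for Nr4a2, Gadd45b and Tnfaip3. The log2 change of Nr4a1 was 2.39 ± 0.72 (SE, limma adjusted p = 0.0325), fell to 1.58 without memory replicate 3, and lost its call without memory replicate 2 or any one naive library. Dusp5, a phosphatase that ends MAP kinase signals, rose by 3.998. Myc was the member that fell, with 30.1, 22.2, 16.8 and 44.3 TPM in memory libraries and 107 to 114 TPM in naive libraries (log2 change -2.03). Of 41 genes of T cell receptor signalling and feedback, 16 were called higher and 7 lower. Dgka, which removes diacylglycerol, had 104, 87.8, 75.5 and 103 TPM in memory libraries and 476 to 516 TPM in naive libraries (log2 change -2.41). The phosphatase gene Dusp10 fell by 1.80, and the kinase gene Prkcq fell by 1.26. Txk, a kinase of the Tec family, fell by 4.13. Zap70 rose by 0.81, and this call was lost in some fits that left out a library. The zeta chain gene Cd247 fell by 1.101, whereas Thy1 rose by 1.41 and Cd2 by 0.95. In the T cell identity list, 3 of 16 genes (18.8%) were called in each direction. Over all genes tested the shares were 18.3% higher and 10.6% lower. Without memory replicate 4 there were 7 called higher and 3 lower in this list, and the model of all 8 groups called 0.

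Metabolic and interferon lists differed in how many members were called, beside 18.3% called higher and 10.6% lower over all genes tested. Of 37 oxidative phosphorylation genes, 3 were called higher and 2 lower, both below the shares over all genes. Without memory replicate 4 there were 10 called higher. Cox5a, of respiratory complex IV, showed the largest change at 0.87. Of 25 genes of glycolysis and hypoxia, 12 were called higher and 3 lower. Slc16a3, a lactate exporter, rose by 1.44 and the hypoxia gene Bnip3 by 1.39. Pdk1, which restrains oxidation of pyruvate in mitochondria, had 26.3, 22.6, 21.99 and 34.5 TPM in memory libraries and 222 to 233 TPM in naive libraries. This was the largest fall in this list (log2 change -3.08 ± 0.15, SE, limma adjusted p = 2.00e-06). Of 23 genes of lipid uptake and oxidation, 5 were called higher (21.7%) and 4 lower (17.4%), which is near the shares over all genes. Fabp5, a fatty acid carrier, stood at a log2 change of 2.36 and the lysosomal lipase gene Lipa at -1.39. Of 34 type I interferon response genes, 4 were called higher and 10 lower, with a median log2 change of -0.25. The antiviral sensor gene Oas2 fell by 2.63, its relative Oasl2 by 2.18 and Usp18, a brake on interferon signals, by 1.55, while Mx1 rose by 1.47. Ly6a, which encodes Sca-1, had 1560.4, 1767, 1566 and 955 TPM in memory libraries and 144 to 177 TPM in naive libraries. In the model of all 8 groups, 1 interferon gene was called in each direction.

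Of 26 tested survival and death genes, 12 were called higher (46.2%) and 5 lower (19.2%), beside 18.3% and 10.6% over all genes tested. The Bcl2a1b and Bcl2a1d genes, anti-apoptotic relatives of Bcl2, rose by 4.41 and 5.73, while Bcl2 and the death gene Bcl2l11, which encodes Bim, fell by 0.98 and 1.05. Casp1, the inflammasome protease, had 190, 138, 151 and 106 TPM in memory libraries and 2.29 to 2.75 TPM in naive libraries (log2 change 5.34). All 8 Gimap genes, GTPases of lymphocyte survival, were tested and 7 were called lower, with Gimap7 at -1.92 and Gimap6 at -1.30. The model of all 8 groups called 0 of the 8. Of 21 genes of the TGF-beta pathway, 6 were called higher (28.6%) and 5 lower (23.8%), beside 18.3% and 10.6% over all genes tested. Pmepa1, a feedback inhibitor that TGF-beta induces, had 17.3, 18.1, 23.9 and 2.61 TPM in memory libraries and 2.76 to 4.35 TPM in naive libraries. Memory replicate 4 lay among or below the naive libraries. Its log2 change was 1.65 ± 0.54 (SE, limma adjusted p = 0.0462), and 2.28 without that library, and the call was lost without any one of the other 7 libraries. Smad5 and Smad1, signal carriers of the related BMP branch, fell by 0.97 and 0.84.

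The levels of core genes in the day 12 lymph node and in the libraries labelled spleen place the 2 groups among cells of the same specificity. These comparisons share the memory or the naive libraries and are given as levels only (mean ± SD, n = 4). Gzmb was of the same order in all 3 antigen-experienced groups, at 877 ± 354 TPM in lymph node memory, 659 ± 84.2 in day 12 lymph node and 427 ± 219 in spleen libraries, against 0.833 ± 0.270 in naive libraries. Mki67 was highest at day 12, with 6.33 ± 1.94 TPM in lymph node memory, 39.0 ± 4.02 in day 12 lymph node and 5.73 ± 3.83 in spleen libraries, against 0.395 ± 0.154 in naive libraries. Il7r had its lowest level at day 12, at 278 ± 73.3 TPM in lymph node memory, 24.6 ± 2.87 in day 12 lymph node and 158 ± 27.0 in spleen libraries, against 111 ± 6.41 in naive libraries.

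Of the residency list, 4 genes are given here. Itgae stood at 325 ± 123 TPM in lymph node memory, 71.5 ± 12.2 in day 12 lymph node and 70.8 ± 48.4 in spleen libraries, against 84.8 ± 9.63 in naive libraries. The last 3 did not differ beyond their spread, and every lymph node memory library (176 TPM or more) lay above every library of the other 3 groups (141 TPM or less). Zfp683 had 46.7 ± 21.2 TPM in lymph node memory, 3.27 ± 0.758 in day 12 lymph node and 3.04 ± 2.32 in spleen libraries, against 0.953 ± 0.546 in naive libraries. Cxcr6 had 2212 ± 758, 269 ± 27.4 and 724 ± 277 TPM in the same 3 groups and 123 ± 7.52 TPM in naive libraries. Cd69 had 133 ± 24.6 TPM in lymph node memory, 58.9 ± 2.85 in day 12 lymph node and 58.7 ± 33.7 in spleen libraries, against 114 ± 8.63 in naive libraries, and the lymph node memory and naive libraries overlapped.

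Of the circulation genes and naive factors, 4 genes are given here, beside Ccl5. Klf2 stood at 122 ± 19.5 TPM in lymph node memory, 308 ± 17.02 in day 12 lymph node and 647 ± 111 in spleen libraries, against 571 ± 54.3 in naive libraries. S1pr1 stood at 31.0 ± 13.6, 98.7 ± 7.34 and 152 ± 61.6 TPM in the same 3 groups and 301 ± 15.2 TPM in naive libraries. Tcf7 had 132 ± 15.1 TPM in lymph node memory, 215 ± 32.4 in day 12 lymph node and 139 ± 126 in spleen libraries, against 639 ± 17.7 in naive libraries. Lef1 ranged from 4.88 to 313 TPM between the spleen libraries, so no order of the spleen and the 2 node groups can be read from it. Ccl5 stood at 5952 ± 2249 TPM in lymph node memory, 587 ± 75.8 in day 12 lymph node and 13979 ± 9921 in spleen libraries, against 2.20 ± 1.504 in naive libraries, and the lymph node memory and spleen libraries overlapped.

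**Figure D5:**
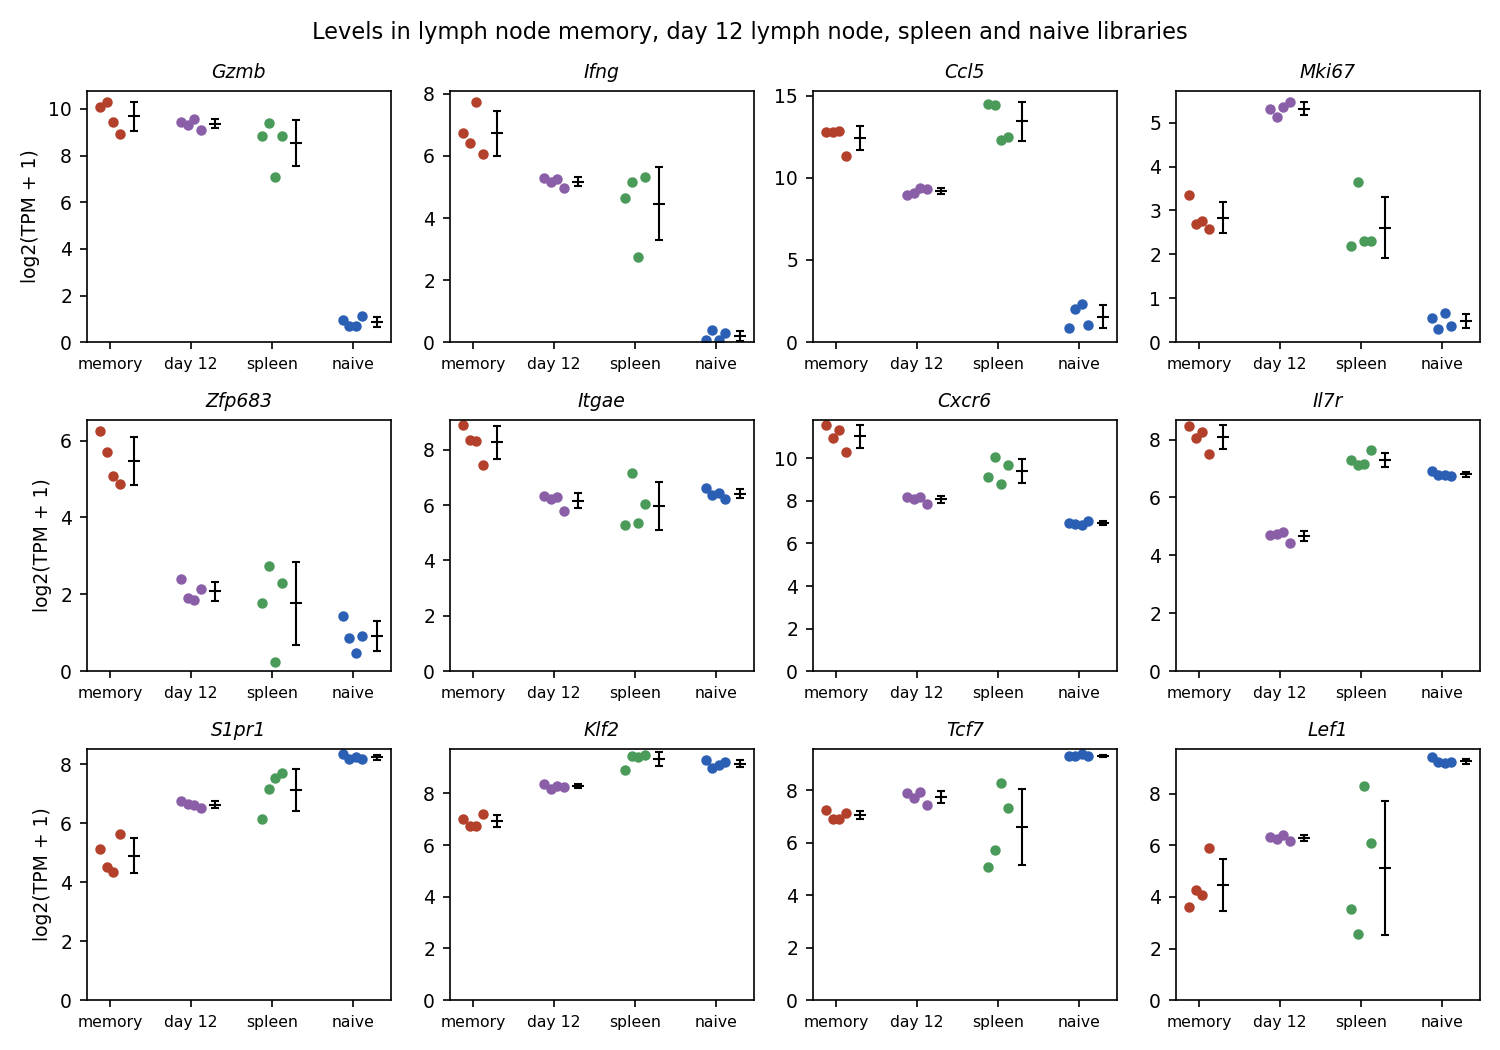
Log2(TPM + 1) of 12 genes in lymph node memory, day 12 lymph node, spleen and naive libraries, with 1 point per library and the mean ± SD of each group of 4 beside the points. Itgae and Zfp683 lie highest in lymph node memory (means of 325 and 46.7 TPM), Mki67 in the day 12 lymph node (39.0 TPM), and Klf2 is lowest in lymph node memory (122 TPM).

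Promoter windows were read for the 15 largest changes in each direction, since T-bet rose and TCF-1 and LEF-1 fell. RefSeq windows of 300 bases (GRCm38.p6), from 250 before to 50 after a start, were searched on both strands for the T-box letters GGTGTGA, the AP-1 letters TGACTCA and the TCF and LEF letters CTTTGA. The AP-1 and TCF letters can overlap. Of the 15 genes that rose most 12 had a window, 0 with the T-box letters, 2 with the AP-1 letters and 2 with the TCF letters. The 18 windows of 10 genes that fell most held 0, 1 and 2. Over all called genes, the T-box letters stood in 4.24% of 2218 windows of genes called higher and 3.37% of 1248 windows of genes called lower, against 3.43% of the windows of genes tested and 3.98% of all 32851 windows. The AP-1 letters stood in 4.78% of the windows of genes called higher and 3.04% of those called lower, against 3.57% of the windows tested and 5.2% of all. The TCF letters stood in 11.7% of the windows of genes called higher and 14.1% of those called lower, against 12% of the windows tested and 16% of all. These shares lie near the background, and a match is a description of letters.

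The 250 bases before the start are shown for 1 gene of each direction with a match, in the direction of the gene with the matched letters in capitals. The Gzmb window lies at chr14:56262335-56262584 (GRCm38.p6, minus strand), and its AP-1 letters, on the opposite strand, begin 58 bases before the start. The Txk window lies at chr5:72752778-72753027 (GRCm38.p6, minus strand), and its TCF letters, on the opposite strand, begin 192 bases before the start.
Gzmb: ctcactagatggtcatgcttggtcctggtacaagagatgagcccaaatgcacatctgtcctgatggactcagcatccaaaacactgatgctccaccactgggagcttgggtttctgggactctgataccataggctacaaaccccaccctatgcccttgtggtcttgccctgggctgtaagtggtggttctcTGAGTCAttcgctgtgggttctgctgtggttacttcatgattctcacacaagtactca
Txk: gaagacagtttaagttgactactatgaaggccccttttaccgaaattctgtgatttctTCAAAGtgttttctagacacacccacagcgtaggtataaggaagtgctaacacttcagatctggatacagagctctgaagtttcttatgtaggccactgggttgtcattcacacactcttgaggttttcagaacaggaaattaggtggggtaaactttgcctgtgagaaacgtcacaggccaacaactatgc
Gzmb is the granzyme that rose by 8.82, and Txk is the kinase that fell by 4.13 and had 4.39, 4.94, 5.28 and 18.0 TPM in memory libraries and 129 to 147 TPM in naive libraries.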

How the data were processed

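The labels describe 32 libraries in 8 groups of 4, of which the 4 lymph node memory and 4 naive libraries were compared, and 8 others were used as levels. Lymph nodes were mechanically dissociated, per the labels' protocols, and libraries followed standard Illumina protocols. Per the submitters' processing notes, Bowtie aligned reads to mm10. The version, annotation and counting were not given in the sources used here. As a single table, the authors deposited natural log (ln) values of TPM + 1, a unit settled from the values: converted back, all are multiples of 0.01 TPM, and library sums run from 999999.06 to 1000000.80 TPM. TPM holds no read counts, so depth, counting intervals and detection floors are unknown.

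Values were converted to log2(TPM + 1). Genes with at least 1 TPM in 4 or more of the 8 libraries were kept, 13801 of 39382 above 0. Both groups were fitted by limma 3.58.1 (R 4.3.3), allowing the variance to follow the mean level and leaving 6 residual degrees of freedom, and p-values were adjusted by Benjamini-Hochberg over all genes tested. Calls are adjusted p under 0.05. Only the 8 libraries entered the fit because the residual SD (log2) differed between groups, at 0.602 in lymph node memory, 0.354 in naive, 0.303 in day 12 lymph node and 1.42 in liver libraries. The fit was tested on simulated data with known changes. Sums of marker genes were compared by exact two-sided permutation over the 70 splits of 8 libraries and adjusted over 13 lists. Figures and tables used Python 3.11.15, NumPy 2.4.6, pandas 2.3.3 and Matplotlib 3.10.9.

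The groups, the 27 gene lists, the 12 marker lists and the rule for naming genes were chosen with earlier results of these data known. The rule takes 28 core genes (1 of them, and 1 list member, are not reported here). It adds the 15 genes that rose most and the 15 that fell most, out of called genes whose mean log2 is 3 or more and whose groups do not overlap, leaving out predicted genes, receptor segments and markers. It also takes up to 4 called members per list and direction, of which a part is printed. Of 46517 gene names, 40443 (86.9%) matched a symbol of the reference tables. Gene positions are from GENCODE vM21 (GRCm38), and promoter windows from RefSeq (GRCm38.p6). Alternatives were no filter, 5 TPM, a pseudocount of 0.1, all 8 groups, array weights, a replicate block, quantile normalization, rescaling without mitochondrial, segment and marker genes, leaving out each library, and leaving out the 2 memory libraries richest in myeloid and B cell RNA.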

Additional observations from a re-analysis of the deposited data

Results flagged for a closer look

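In groups of 4, a library was singled out when its gap to the nearest other library as a share of the group's range exceeded Dixon's critical value, which chance gives in about 1 of 20 groups. Of 128 groups looked at, which include those of the 51 core and largest-change genes, 9 were singled out, all in these genes. In lymph node memory, replicate 4 accounted for 5. It had 2589 TPM of Ccl5 (6927 to 7336 in the other memory libraries), 16.7 TPM of Pdcd1 (92.6 to 107), 443 TPM of Lgals3 (1272 to 1332), 17.03 TPM of Tdrp (3.64 to 4.36) and 18.0 TPM of Txk (4.39 to 5.28). In each of these 5 genes replicate 4 lay on the naive side of the other memory libraries. It is also the library with the lowest T cell identity sum and the highest dendritic cell and B cell sums, and their part in these values was not tested.

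In naive cells the gaps were small in size. Replicate 3 had 665 TPM of Tcf7 (628 to 633 in the other naive libraries). Replicate 1 had 674 TPM of Lef1 (586 to 595) and 355 TPM of Satb1 (289.9 to 295). Replicate 4 had 0.91 TPM of Prdm1 (1.08 to 1.09).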

How the results depend on the processing

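The calls over all genes, 2522 higher and 1467 lower, stayed within 1.5 times of these counts under most settings. The model of all 8 groups gave 941 higher and 400 lower, and for the list genes 155 higher and 37 lower, against 255 and 111. Array weights gave 2532 lower and quantile normalization 2864 lower, with a median log2 change of -0.12 over all genes. Leaving out each library in turn gave 1888 to 3289 higher and 1101 to 2190 lower over all genes, and 229 to 297 higher and 97 to 126 lower among list genes. The highest counts were 3289 higher without memory replicate 4 and 2190 lower without memory replicate 1. The causes were not tested. Of 171 named genes, 169 were called, 156 of them in every fit that left out a library, and no log2 change of a named gene turned sign under any alternative. The model of all 8 groups lost the calls of 62 named genes, among them Id3, Tox, Myc, Slamf6, Bcl2 and the Gimap genes. Cd69 was called with array weights, and Eomes without memory replicate 2 and without memory replicates 2 and 4.

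With the difference of medians in place of means, the marker sums kept their directions. The exact test on medians cannot go below p = 0.0571 with 4 against 4 (adjusted exact p = 0.0825), so no call was possible. The log2 differences were then -0.31 for T cell identity, 1.60 for myeloid, 5.43 for dendritic cell, 4.89 for plasma cell, 3.86 for NK cell, 4.98 for CD4 and regulatory T cell, 0.81 for gamma delta T cell and 1.44 for keratinocyte markers.

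Whether the replicate numbers pair the samples is unknown. Deviations of same-numbered libraries from their group means correlated over genes at 0.22, -0.03, -0.13 and -0.25. Such correlations also carry what is particular to each library, so they cannot decide the question. A fit with the replicate number as a block called 2206 higher and 1254 lower, and lost 6 named genes, Ephb6, Il16, P2rx7, Ndufb8, Cox5b and Bmf. Depth is unknown, so genes near the limit of detection cannot be told from absent ones.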
